A study of Mus musculus with 6 samples.

Results

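Chromatin accessibility was examined around 9 genes of the foregut endoderm, *Foxa1*, *Foxa2*, *Nkx2-1*, *Sox2*, *Sox17*, *Shh*, *Cdh1*, *Epcam* and *Grhl2*, out of 21627 protein-coding genes on the autosomes and X. Peaks were taken when their summit lay within 100 kb of a gene body in mm10, and out to 500 kb at *Foxa2* and *Shh*. Within 100 kb this gave 60 of the 44018 peaks of the posterior second heart field (pSHF) list and 49 of the 49267 peaks of the atrial (HT) list, and with the longer reach 95 and 76 peaks.

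The measurements are ATAC-seq, in which the Tn5 transposase cuts and tags DNA that is not packed by nucleosomes. Both groups came from wild-type mouse embryos, CD1 (an outbred stock), at embryonic day 10.0, and the labels name no treatment. The tissues were the pSHF, the mesoderm behind the heart that adds cells to its inflow end, and the atria (HT). They were microdissected, pooled and dissociated, and each tissue has 3 samples. The files hold 1 peak list per tissue, so no value per replicate, SD or p-value could be given, and no difference below could be set against the spread between embryos. By its title the series concerns Hedgehog signaling and the timing of differentiation.

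The foregut endoderm is the epithelial tube from which the pharynx, oesophagus, trachea, lung and stomach form. It lies directly against the pSHF in the embryo, and the Sonic hedgehog protein that it secretes is received by the neighbouring mesoderm. The forkhead factors of the Foxa family bind compacted chromatin early and prepare endodermal genes for use. *Nkx2-1* marks the future lung, trachea and thyroid and *Sox2* the future oesophagus, whereas *Sox17* acts when endoderm is first specified. *Cdh1* and *Epcam* encode adhesion molecules of epithelia, and *Grhl2* encodes a grainyhead factor that activates epithelial junction genes. None of these roles is exclusive, since *Foxa2* and *Shh* are also used in notochord and floor plate, *Sox2* in the neural tube and *Sox17* in endothelium. In bulk samples, fewer cells of a type and less open chromatin per cell cannot be told apart.

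Fold enrichment below is the deposited ratio of the signal at a summit to the peak caller's local background. Shared peaks are those with 1 bp or more in common with any peak listed for the other tissue, and all remaining peaks are termed restricted. The number of reads piled up at each summit was worked back to a whole number from its ratio and its p-value. The median over all peaks was 11 reads in pSHF and 12 in HT, and the smallest listed pileup was 5 reads in both. Absence from a list therefore means that the site did not reach that list's threshold, not that the chromatin was closed. Intervals on pileups are exact Poisson and intervals on shares are exact Clopper-Pearson, both at 95% and for counting error only. As a check of the dissection, peaks within 100 kb of the atrial genes *Nppa*, *Myl7*, *Myl4*, *Actc1* and *Ttn* were counted. Of these, 40 of 65 HT peaks were restricted, against 7 of 32 pSHF peaks. The restricted count was higher in HT at 4 of the 5 genes, and *Myl7* had 4 in each list. A summit within 1 kb of an end of the gene was listed at 4 of these 5 genes in HT and at 0 in pSHF. Around the pSHF genes *Isl1*, *Osr1*, *Foxf1* and *Gli1*, 14 of 37 pSHF (37.8%) and 10 of 32 HT peaks (31.2%) were restricted. Over all peaks of each list the shares were 34.4% and 45.5%. Restricted counts in pSHF and HT were 9 and 4 at *Foxf1*, 1 and 0 at *Osr1*, 2 and 2 at *Isl1*, and 2 and 4 at *Gli1*. Each list held a summit within 1 kb of an end at 3 of these 4 genes, though not the same 3. *Isl1* and *Osr1* had such a summit in both lists, *Foxf1* in pSHF only and *Gli1* in HT only.

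Promoter sequences from RefSeq (assembly GRCm38.p6, the same chromosomes as mm10) were found for 5 of the 9 genes, *Foxa1*, *Foxa2*, *Nkx2-1*, *Sox2* and *Epcam*, in 7 windows of 300 bases that run from 250 bases before to 50 after a start. 3 windows that met a peak are printed 5′ to 3′ on the gene's strand, because their presence in the lists differed, with the bases under a peak in capitals. In the *Epcam* window (chr17:87635729-87636028, plus strand) bases 1 to 199 lie under a pSHF-restricted peak. In the *Sox2* window (chr3:34649745-34650044, plus strand) bases 1 to 251 lie under an HT-restricted peak. In the window of the middle of 3 *Foxa2* starts (chr2:148045899-148046198, minus strand) bases 1 to 174 lie under a shared pSHF peak and bases 1 to 69 also under its HT partner. The *Foxa1* window (chr12:57546062-57546361, minus strand), which no peak of either list touched, is added with its forkhead letters in capitals.
Epcam: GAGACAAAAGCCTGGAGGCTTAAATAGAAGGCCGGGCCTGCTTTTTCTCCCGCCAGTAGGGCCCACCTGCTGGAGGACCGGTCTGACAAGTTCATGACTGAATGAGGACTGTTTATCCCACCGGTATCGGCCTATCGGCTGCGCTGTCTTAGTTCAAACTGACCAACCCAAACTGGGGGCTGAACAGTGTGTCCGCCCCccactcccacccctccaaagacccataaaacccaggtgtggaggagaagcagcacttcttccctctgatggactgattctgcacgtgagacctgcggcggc
Sox2: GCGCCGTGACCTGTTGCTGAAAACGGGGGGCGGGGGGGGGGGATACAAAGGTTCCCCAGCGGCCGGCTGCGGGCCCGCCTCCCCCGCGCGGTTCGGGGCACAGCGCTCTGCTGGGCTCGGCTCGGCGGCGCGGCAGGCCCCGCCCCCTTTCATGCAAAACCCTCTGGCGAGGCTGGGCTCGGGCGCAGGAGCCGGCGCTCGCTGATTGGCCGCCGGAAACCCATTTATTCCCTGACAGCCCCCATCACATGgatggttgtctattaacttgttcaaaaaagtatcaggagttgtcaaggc
Foxa2: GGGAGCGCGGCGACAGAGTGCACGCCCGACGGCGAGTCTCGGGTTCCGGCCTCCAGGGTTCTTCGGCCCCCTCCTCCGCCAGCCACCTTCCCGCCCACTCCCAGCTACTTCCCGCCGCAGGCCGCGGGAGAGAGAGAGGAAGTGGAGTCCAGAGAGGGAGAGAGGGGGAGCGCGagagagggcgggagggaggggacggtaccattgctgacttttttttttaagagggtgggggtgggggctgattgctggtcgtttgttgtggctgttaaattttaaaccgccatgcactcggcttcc
Foxa1: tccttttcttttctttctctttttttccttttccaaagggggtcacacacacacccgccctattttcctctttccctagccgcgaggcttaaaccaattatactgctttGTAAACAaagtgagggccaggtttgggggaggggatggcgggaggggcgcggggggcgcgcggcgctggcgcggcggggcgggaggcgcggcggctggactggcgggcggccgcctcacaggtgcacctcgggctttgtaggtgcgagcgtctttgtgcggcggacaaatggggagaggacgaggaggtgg

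Of the 7 windows, 2 met a pSHF peak and 2 an HT peak, where 40.5% and 41.2% of all 32851 RefSeq windows did. The letters TGTTTAC, a forkhead motif, were searched on both strands and stood in 1 of the 7 windows, at bases 110 to 116 of *Foxa1* on the reverse strand, beside 3.65% of all windows. ATTGTT, a Sox motif, stood in the *Nkx2-1* window alone (10.7% of all), and neither GACCACCCA, a Gli motif (0.253% of all), nor AACCNGGTT, searched for grainyhead (0.271%), stood in any. The grainyhead palindrome AACCGGTT (0.146% of all), added after the sequences were seen, stood in none. Its core ACCGGT, added likewise, stood at bases 77 to 82 and 120 to 125 of the *Epcam* window, both under the pSHF peak, and 2.33% of all windows held it. A match of letters is a description of the sequence and not a binding site.

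Most peaks around the foregut genes were listed in a single tissue. In pSHF, 36 of 60 peaks (60%, 95% interval 46.5 to 72.4) were restricted, where 34.4% of all pSHF peaks were. In HT, 26 of 49 peaks (53.1%, 38.3 to 67.5) were restricted, where 45.5% of all HT peaks were. All 9 genes had at least 1 restricted peak in each list. The count of restricted peaks was higher in pSHF at *Foxa1*, *Grhl2*, *Foxa2* and *Epcam*, higher in HT at *Sox2* and *Cdh1*, and equal at *Nkx2-1*, *Sox17* and *Shh*. Over all protein-coding genes within the same reach, 20.5% had more pSHF-restricted and 55% more HT-restricted peaks. Medians over all of them were 1 restricted peak in pSHF and 3 in HT, and over the 9 genes 3 and 2. The genome-wide share lay below the interval in pSHF and inside it in HT, and peaks around a gene are not independent of each other.

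**Figure D1:**
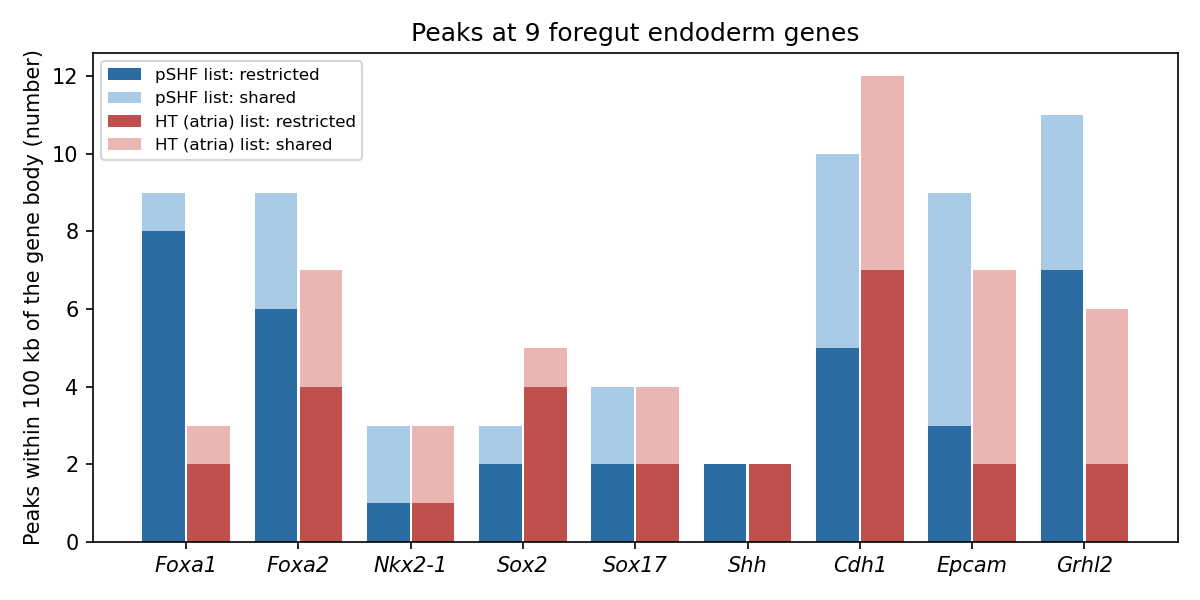
Number of peaks with a summit within 100 kb of each gene body (y axis), for each gene (x axis), with the pSHF list in blue and the HT list in red. Dark bars count restricted and light bars shared peaks, with 8 restricted of 9 pSHF peaks at Foxa1, 1 of 3 at Nkx2-1, and no shared peak at Shh.

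Away from gene ends the restricted shares were higher. More than 1 kb from any annotated gene end, 30 of 38 pSHF peaks (78.9%, 62.7 to 90.4) were restricted, beside 48.4% genome-wide, and 23 of 32 HT peaks (71.9%, 53.3 to 86.3), beside 60.1%. Shared peaks were mostly those at gene ends, 16 of 24 in pSHF (66.7%) and 14 of 23 in HT (60.9%). Genome-wide, 53.9% and 52.5% of shared peaks were at gene ends. Of the 16 and 14, only 4 in each list stood at an end of a foregut gene itself. The rest belonged to neighbours such as *Tango6*, *Cdh3* and *Nkx2-9*, or to noncoding genes. A summit within 1 kb of an end of the gene was listed at 6 of the 9 genes in pSHF (*Foxa2*, *Sox2*, *Sox17*, *Cdh1*, *Epcam* and *Grhl2*) and at 4 in HT (*Foxa2*, *Sox2*, *Cdh1* and *Epcam*). The shares over all protein-coding genes were 58.5% and 59.2%. *Foxa1*, *Nkx2-1* and *Shh* had none in either list. Only the outer ends of each gene were counted here. An HT peak inside *Foxa1* (summit 57545723) lay within 1 kb of its RefSeq start at 57546111, which is not an outer end.

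The restricted peaks of the foregut genes were close in size to other restricted peaks. They held 5 to 16 reads in pSHF (median 8.5) and 6 to 17 in HT (median 9.5), where the medians over all restricted peaks were 8 and 9. Of the 36 in pSHF, 18 held 8 reads or fewer (50%, beside 52.5% of all restricted peaks), as did 11 of the 26 in HT (42.3%, beside 40.7%). 1 summit was listed in 35 of the 36 and 25 of the 26. Median fold enrichment was 4.10 in pSHF and 4.39 in HT, beside 4.31 and 4.84 over all restricted peaks of each list. The shared peaks reached medians of 4.54 and 4.87, beside 5.54 and 7.0 genome-wide. Among peaks with −log10 q no lower than 5, set against peaks of any strength in the other tissue, 7 of 16 pSHF peaks (43.8%, 19.8 to 70.1) and 10 of 21 HT peaks (47.6%, 25.7 to 70.2) were restricted. The genome-wide shares were 11.7% and 30.7%. Among these stronger peaks HT had more restricted ones than pSHF, 10 against 7, the reverse of the order among all restricted peaks of the 9 genes. Genome-wide, HT also had more of them, 9156 against 2403. The genome-wide share lay below the interval in pSHF and inside it in HT.

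**Figure D2:**
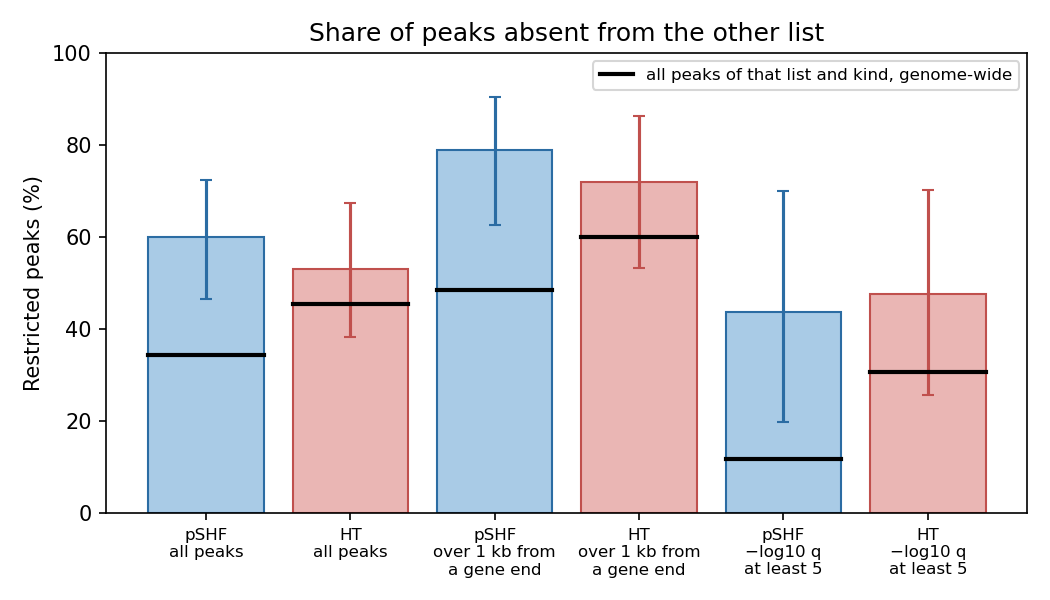
Percent of peaks absent from the other list (y axis) at the 9 genes, for all peaks, peaks over 1 kb from a gene end and peaks with a −log10 q of at least 5 (x axis). Bars are the pSHF list (blue) and the HT list (red) with exact 95% intervals, and black lines give the genome-wide shares, which lie between 11.7% and 60.1% and below the bar in each of the 6 cases.

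**Figure D3:**
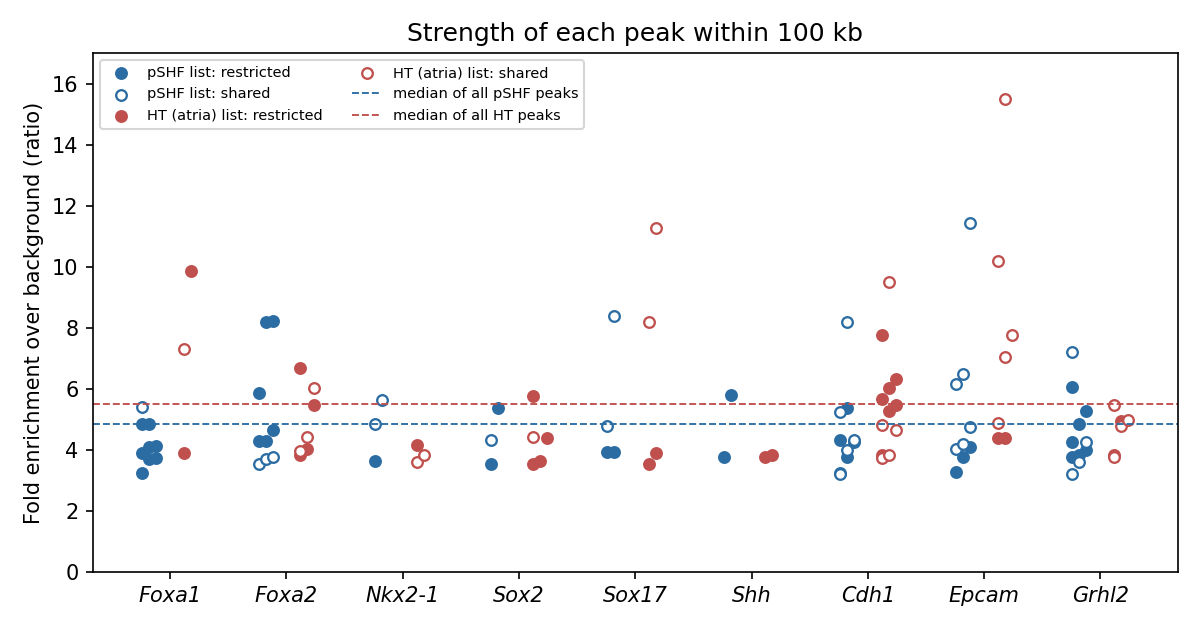
Fold enrichment of every peak within 100 kb (y axis) by gene (x axis), with filled points restricted and open points shared, pSHF in blue and HT in red. Dashed lines mark the medians of all peaks, 4.85 in pSHF and 5.49 in HT, and most points lie below the line of their list.

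*Foxa2* (chromosome 2, 148042877 to 148046969, minus strand), the forkhead gene expressed along the gut tube, notochord and floor plate, had the 2 strongest pSHF-restricted peaks of the 9 genes. They lay on opposite sides of the gene. The downstream peak, 74.1 kb away at 147968580 to 147969077, had a fold enrichment of 8.23, a −log10 q of 11.0 and a pileup of 15 reads (8.40 to 24.7), and 0.436% of all pSHF-restricted peaks were at least as strong. The upstream peak, 44993 bp away at 148091679 to 148092236, had 8.20, 11.3 and 16 reads (9.15 to 26), with 0.456% as strong. The nearest HT peaks to them were 44469 and 9123 bp off. A pair of weaker pSHF-restricted peaks stood 37.8 and 37.6 kb downstream, with fold enrichments of 4.30 and 5.87.

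HT listed peaks of its own at *Foxa2*. The strongest, 70.7 kb upstream at 148117457 to 148117816, had a fold enrichment of 6.68 and 17 reads (9.90 to 27.2), and the next, 29.3 kb downstream, had 5.48 and 9 reads. Each list also held a restricted peak upstream, at 75.4 kb with 8 reads in pSHF and at 75.9 kb with 6 reads in HT, and 355 bp lay between them. A further HT-restricted peak, of 11 reads, stood 1927 bp upstream, 105 bp from the nearest pSHF peak. The shared peaks lay inside the gene and up to 35.4 kb upstream of it. The peak inside *Foxa2* (148046025 to 148046302 in pSHF), in the window whose sequence is printed above and upstream of its start, had fold enrichments of 3.69 in pSHF and 3.97 in HT. The peak 1605 bp upstream had 3.52 and 4.43, and the peak 35.4 kb upstream had 3.76 and 6.03. Within 100 kb the lists thus held 6 pSHF-restricted, 4 HT-restricted and 3 shared peaks.

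Out to 500 kb the pSHF peaks of *Foxa2* were most often restricted on the downstream side, where *Foxa2* was the nearest coding gene of 11 of the 12. Downstream of the gene, 12 pSHF peaks were listed, 11 of them restricted, beside 3 HT peaks, 2 of them restricted. Between 100 and 200 kb downstream 5 of 6 pSHF peaks were restricted, and the 1 HT peak was shared. The strongest of the 5, at 147906084 to 147906255, 137 kb away, had a fold enrichment of 6.06 and 13 reads. Upstream, 6 of 17 pSHF peaks and 7 of 17 HT peaks were restricted. Between 200 and 500 kb upstream the peaks were nearest to *Sstr4*, *Thbd* and *Cd93*, and 9 of 11 pSHF and 8 of 12 HT peaks were shared. In all 17 of 30 pSHF and 9 of 21 HT peaks within 500 kb were restricted, of which 6 and 3 had a −log10 q of 5 or more. Genome-wide, 34.4% of pSHF and 45.5% of HT peaks were restricted. Over 1 kb from any gene end the genome-wide shares were 48.4% and 60.1%. With a −log10 q of at least 5 in both lists, the difference of 8 restricted peaks turned to -1, that is to 1 more in HT.

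**Figure D4:**
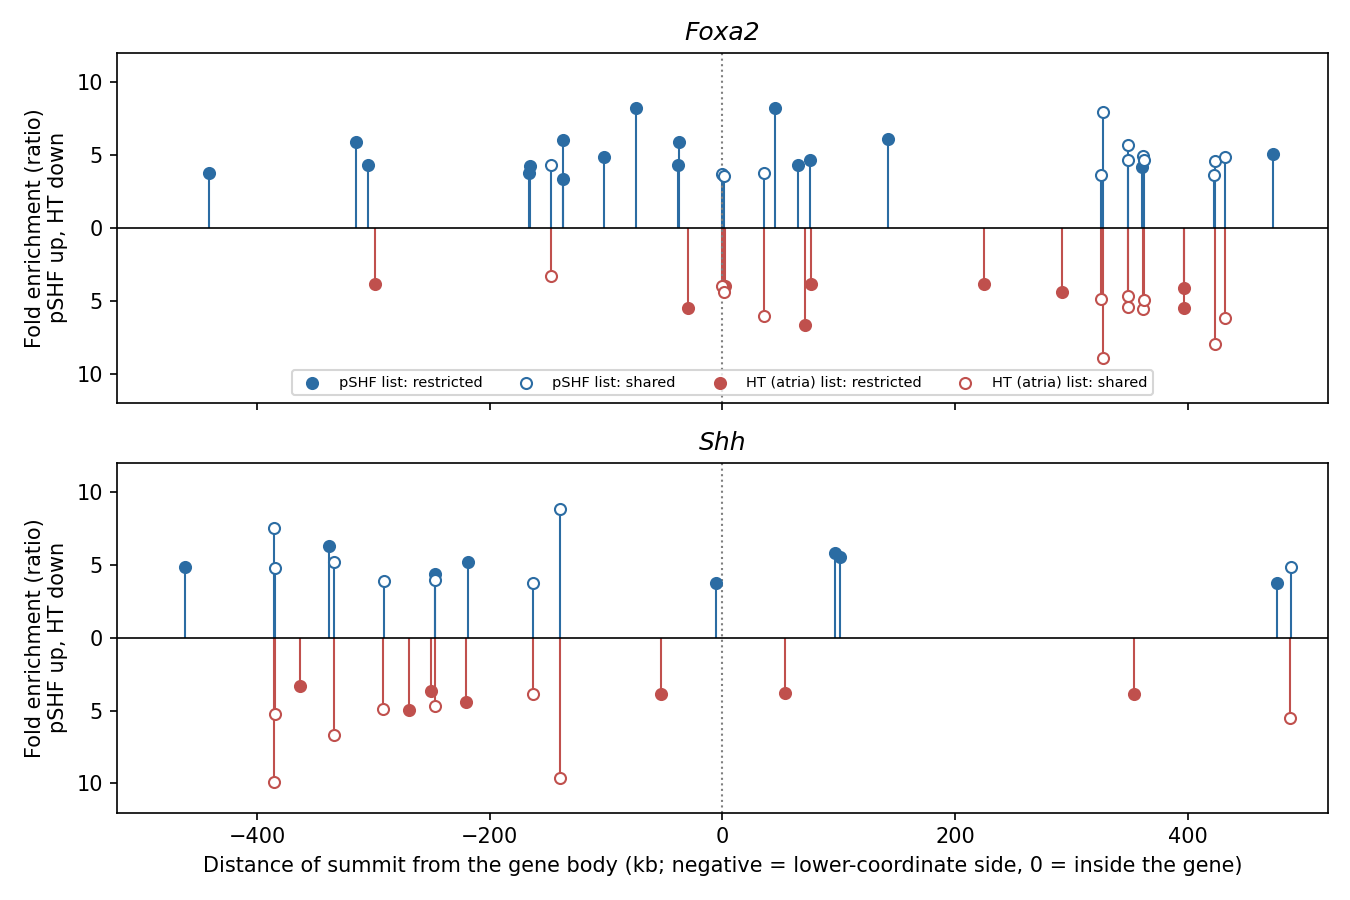
Peaks around Foxa2 (top) and Shh (bottom) by distance of the summit from the gene body in kb (x axis) and fold enrichment (y axis, pSHF upward in blue, HT downward in red), filled where restricted and open where shared. On the lower-coordinate side of Foxa2, its downstream side, 11 of 12 pSHF peaks and 2 of 3 HT peaks are restricted. Genome-wide, 34.4% of pSHF and 45.5% of HT peaks are. The higher-coordinate side of Shh holds 4 pSHF and 3 HT peaks.

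*Foxa1* (chromosome 12, 57540628 to 57548029, minus strand) encodes the partner of *Foxa2* in gut and lung epithelium. It had the largest excess of pSHF-restricted peaks of the 9 genes, 8 against 2, and 0.601% of all protein-coding genes had a difference of 6 or more. The difference was 1 when only peaks with *Foxa1* as their nearest coding gene were counted (*Grhl2* 3, *Foxa2* 2), 1 among peaks no weaker than the median of their list (*Grhl2* 4), 3 within 50 kb, and 4 within 500 kb (*Foxa2* 8, *Nkx2-1* 7). The 8 peaks were weak, between 5 and 12 reads and between 3.23 and 4.85 in fold enrichment. A pair of them stood just past the 3′ end of the gene, 1760 and 1424 bp downstream, with 12 reads each. For the others the nearest coding gene was *Mipol1* or *Ttc6*. Some of these were close neighbours too, at 96.3 and 96.1 kb downstream and at 76.1 and 76.3 kb upstream. Another, 28.6 kb upstream, stood beside the shared pSHF peak at 28.4 kb. The 8 peaks are therefore not 8 separate places. HT listed a peak of 11 reads inside *Foxa1*, at 57545661 to 57545849, which the pSHF list did not hold. Its summit at 57545723 was near the RefSeq start at 57546111.

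The strongest restricted peak at any foregut gene was an atrial peak whose nearest coding gene was *Ttc6*. It lay 59.8 kb upstream of *Foxa1* at 57607690 to 57607927, with a fold enrichment of 9.87, a −log10 q of 14.6 and 17 reads (9.90 to 27.2), and 3.18% of all HT-restricted peaks were as strong. The 1 shared peak, 28.4 kb upstream at an end of the noncoding gene *Gm30518*, had fold enrichments of 5.40 in pSHF and 7.29 in HT. With −log10 q limited to 5 or more, the difference at *Foxa1* turned to -1, because only this atrial peak remained restricted.

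*Nkx2-1* (chromosome 12, 56531935 to 56536908, minus strand), the homeobox gene of lung and thyroid primordia, had 3 peaks in each list. A pSHF-restricted peak stood 4321 bp upstream with 7 reads and a fold enrichment of 3.65. An HT-restricted peak stood inside the gene with 11 reads and 4.16. The 2 shared peaks lay toward *Nkx2-9*, 51.0 and 75.1 kb upstream, and both were stronger in pSHF. Fold enrichments were 4.85 in pSHF and 3.84 in HT at the nearer site, and 5.63 and 3.60 at the farther one, with 15 and 7 reads.

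*Sox2* (chromosome 3, 34649995 to 34652461, plus strand), whose product is a high-mobility-group factor of foregut and neural epithelium, had a promoter peak in the atrial list only. This peak, at 34649728 to 34649995 over the sequence printed above, had a fold enrichment of 5.77, a −log10 q of 7.70 and 16 reads (9.15 to 26), and the nearest pSHF peak was 896 bp away. That neighbour, inside the gene, was shared, with 14 reads in pSHF and 12 in HT. The strongest pSHF-restricted peak, 95.2 kb downstream, had a fold enrichment of 5.36, 11 reads and a width of 586 bp. The other 4 restricted peaks, 1 in pSHF and 3 in HT, held 6 to 8 reads.

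*Sox17* (chromosome 1, 4490928 to 4497426) encodes a related factor of early endoderm and of arterial endothelium. Its strongest peak was shared. This peak, 74.4 kb away on the higher-coordinate side at 4571416 to 4572246, had fold enrichments of 8.38 in pSHF and 11.3 in HT and pileups of 24 (15.4 to 35.7) and 33 (22.7 to 46.3) reads. Inside the gene the lists placed different peaks. The pSHF list held a peak with 14 reads at 4493422 to 4493688 and a peak with 12 reads at 4497202 to 4497332, 154 bp from an end of the gene. The HT list held neighbouring peaks with 11 and 10 reads between 4491891 and 4492364, at least 1057 bp from those of pSHF. The remaining peak, 78.2 kb away toward *Rp1*, was shared, with fold enrichments of 4.77 in pSHF and 8.19 in HT.

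*Shh* (chromosome 5, 28456840 to 28467101), the gene of the ligand, had the fewest peaks of the 9 genes. Enhancers of *Shh* are known to lie far from it in a gene-poor stretch beside it. Within 100 kb there were 2 peaks in each list, none shared and none inside the gene or within 1 kb of its ends, and 19.9% of protein-coding genes had as few pSHF peaks and 18.6% as few HT peaks. The pSHF peaks were at 28451500 to 28451641, 5245 bp away, with 6 reads, and at 28563542 to 28563817, 96.5 kb away on the higher-coordinate side, with 11 reads (5.49 to 19.7) and a fold enrichment of 5.79. The HT peaks, 52.9 and 53.9 kb away on either side, had 6 reads each.

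Just beyond 100 kb from *Shh* a further pSHF-restricted peak stood beside the one at 96.5 kb. It lay 101 kb away at 28568452 to 28568614, with a fold enrichment of 5.56 and 11 reads. HT peaks were 42448 bp or more from this pair. From there the higher-coordinate side was nearly empty. Between 200 and 500 kb it held 2 pSHF peaks and 2 HT peaks, 1 of each being shared 488 kb away. On the other side, toward *Rbm33*, *Cnpy1*, *En2* and *Insig1*, 12 peaks were listed in each tissue, 5 of them restricted in each. In all 8 of 16 pSHF and 7 of 15 HT peaks within 500 kb were restricted, of which 3 in pSHF and none in HT had a −log10 q of at least 5. The genome-wide shares were 34.4% in pSHF and 45.5% in HT, and 48.4% and 60.1% over 1 kb from any gene end.

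*Cdh1* (chromosome 8, 106603350 to 106670247), the gene of E-cadherin, had 7 restricted peaks in HT and 5 in pSHF within 100 kb. Counting only peaks with *Cdh1* as their nearest coding gene, each list had 1. The peak at its lower-coordinate end was shared (106603123 to 106603455 in pSHF), with fold enrichments of 5.23 in pSHF and 3.84 in HT and 13 and 6 reads. The 2 intervals overlapped by less than 50% of their length. Inside the gene HT had a restricted peak of 10 reads and 6.03 at 106647410 to 106647656, and pSHF had none. The strongest HT-restricted peak, 34.9 kb past the higher-coordinate end in *Tango6*, had 7.77 and 14 reads (7.65 to 23.5).

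A series of 5 HT-restricted peaks ran from *Cdh3*, the P-cadherin gene, toward *Cdh1*, between 86.5 and 25.9 kb away, with fold enrichments of 3.84 to 6.31. These 5 peaks had *Cdh3* as their nearest coding gene. No pSHF peak was listed among them. The 5 pSHF-restricted peaks of the locus had 6 to 12 reads, and the strongest of them, at 5.39 in *Tango6*, ended 15 bp short of an HT peak. With −log10 q limited to 5 or more, and against all peaks of the other list, 6 HT-restricted and no pSHF-restricted peaks remained. Most of these 6, within 100 kb of *Cdh1*, were nearest to *Cdh3* or *Tango6*.

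*Epcam* (chromosome 17, 87635979 to 87651127, plus strand), the epithelial cell adhesion gene, had 6 shared of 9 pSHF peaks, the most of the 9 genes. Its promoter peak was listed in pSHF only. This peak, at 87635692 to 87635927 over the sequence printed above, had a fold enrichment of 4.09, 11 reads (5.49 to 19.7) and a −log10 q of 3.47, and the nearest HT peak was 636 bp away. That HT peak lay inside the gene, was shared, and was stronger in HT, with 7.04 and 16 reads against 4.02 and 11 reads in pSHF. The shared peaks 22.5 and 64.2 kb upstream, near ends of the noncoding genes *Gm46609* and *Gm46587*, were stronger in HT as well, with 10.2 against 6.48 and 7.78 against 4.76.

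The difference in restricted peaks at *Epcam*, 3 in pSHF and 2 in HT, turned to -1 under 3 alternatives: a −log10 q of 5 or more in both lists, only peaks no weaker than the median of their list, and no peaks at gene ends. Within 500 kb it was -2.

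*Grhl2* (chromosome 15, 37232821 to 37363569), the grainyhead gene, had 7 restricted peaks in pSHF and 2 in HT. A difference of 5 or more was found at 1.23% of protein-coding genes. The difference was 2 with −log10 q limited to 5 or more, and 3 within 50 kb, within 500 kb, without peaks at gene ends, or for peaks with *Grhl2* as their nearest coding gene. At the lower-coordinate end, within 1 kb of the ends of *Grhl2* and of *Gm16136*, pSHF had a restricted peak of 11 reads (5.49 to 19.7) and 3.83 at 37233172 to 37233431. A second pSHF-restricted peak inside the gene had 8 reads. The strongest restricted pSHF peaks lay outside it, 95.7 kb past the higher-coordinate end toward *Ncald* with 6.06 and 11 reads, and 34.7 kb before the lower-coordinate end with 5.28 and 11 reads. The 2 HT-restricted peaks had 8 and 6 reads.

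The strongest shared site of *Grhl2* was higher in pSHF. This peak, 97.0 kb away at 37135644 to 37135962, at ends of the noncoding genes *Gm41301* and *Gm34820*, had a fold enrichment of 7.20 in pSHF and 4.78 in HT, and 17 (9.90 to 27.2) and 8 (3.45 to 15.8) reads, with overlapping intervals. The shared peak inside the gene had 4.24 in pSHF and 4.99 in HT, with 13 and 11 reads.

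Most sites listed in both tissues had the higher fold enrichment in HT. Of 22 shared sites with 1 partner each, 5 (22.7%) had the higher fold enrichment in pSHF and 17 (77.3%) in HT, where 24.4% and 75.6% of 22574 such sites in the genome did. The median log2 ratio of pSHF to HT was -0.30 (quartiles -0.59 and -0.06), beside -0.29 genome-wide. By summit pileup the median ratio was 1.0 at the foregut sites and 0.8 genome-wide. The 5 sites higher in pSHF were the 2 of *Nkx2-1*, the distant site of *Grhl2*, the end of *Cdh1* and 1 site in *Tango6*, with ratios of 1.16 to 1.56. Of these 5, only the site of *Grhl2* had a reciprocal overlap of at least 50%, which 12 of the 22 sites had. All 4 paired sites of *Epcam* and all 3 of *Foxa2* had the higher fold enrichment in HT, although 2 of the 3 at *Foxa2* had more reads in pSHF, 14 against 11 and 13 against 12.

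**Figure D5:**
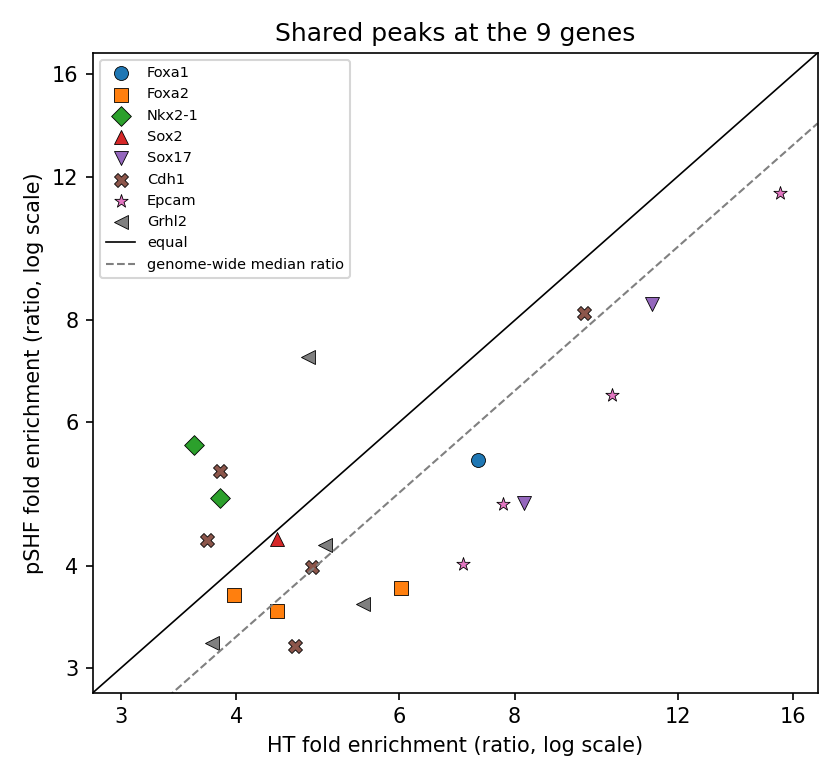
Fold enrichment in pSHF (y axis) against HT (x axis), both as ratios on log scales, at the 22 one-to-one shared peaks of 8 genes, with 1 symbol per gene. The solid line is equality and the dashed line the genome-wide median ratio of 0.820, and 5 points lie above the solid line.

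Other genes of endoderm and epithelium had lower restricted shares than the 9 genes when all peaks within 100 kb were counted. Peaks at gene ends were not set apart in these lists. The genome-wide shares to set beside them were 34.4% in pSHF and 45.5% in HT. Around 11 further endoderm regulators, 27 of 84 pSHF peaks (32.1%) and 27 of 78 HT peaks (34.6%) were restricted. The pSHF count of restricted peaks was the higher at 5 genes and the HT count at 4. Around 19 further epithelial genes, 62 of 218 pSHF peaks (28.4%) and 73 of 216 HT peaks (33.8%) were restricted, with pSHF ahead at 6 genes and HT at 10. *Cldn6*, a claudin of tight junctions, and *Spint2*, a protease inhibitor gene, had 7 and 1 each, and *Cdh3* had 1 and 7. *Cdh3* is a neighbour of *Cdh1*, and the series of HT-restricted peaks between them is counted for both genes. Of the other grainyhead genes, chosen after their values were seen, *Grhl1* had 2 and 7 and *Grhl3* had 3 and 7.

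Genes of tissues that share the factors were counted the same way, beside the same genome-wide shares of 34.4% in pSHF and 45.5% in HT. The notochord and floor plate list of 8 genes had 29 of 77 pSHF peaks (37.7%) and 25 of 73 HT peaks (34.2%) restricted. *Ntn1*, which encodes the guidance protein netrin 1, had 8 and 2, *Foxj1*, a gene of ciliated cells, had 5 and 1, and *Noto* had 2 and 5. The neural tube list of 8 genes had 13 of 45 (28.9%) and 18 of 51 (35.3%), with 1 and 4 at *Pax6* and at *Hes5*. The part of endoderm, notochord or neural cells in the peaks of the 9 genes was not tested.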

How the data were processed

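Per the submitters' processing notes, Bowtie2 2.3.2, SAMtools 1.5, Picard and MACS2 2.1.1 were used with genome build mm10. No source used here gives their parameters or says whether the 3 samples of a tissue were combined before peaks were called. Each deposited line gives a score, the fold enrichment (a ratio), and the −log10 p and −log10 q at a summit, all by the authors' peak caller. The deposited score is 10 times the −log10 q. The files hold 58887 lines in pSHF and 60223 in HT. Lines with equal start and end were merged, with the summit of highest fold enrichment kept, which left 44018 and 49267 peaks. Genes came from the RefSeq table of GRCm38.p6, and strand from RefSeq promoter windows where listed. Otherwise sides are given by coordinate.

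Pileup was the whole number that, with fold = (pileup + 1)/(background + 1), matched the deposited −log10 p by a Poisson law. It matched within 0.01 at 100% of peaks. The genome-wide background was 0.857 reads in pSHF and 0.824 in HT. Read totals are unknown. Scripts (Python 3.11.15, pandas 2.3.3, SciPy 1.17.1) were tested on simulated data. All 9 genes are named, with the strongest peak and strongest restricted peak in each list, and at most 3 genes of each other list. Some results that this rule would name are not reported here. The members and lists were chosen with earlier results of these data known. Alternatives changed the overlap, threshold, distance, assignment and merging.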

Additional observations from a re-analysis of the deposited data

How the results depend on the processing

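With 50% reciprocal overlap, the restricted shares at the 9 genes were 80.0% in pSHF and 75.5% in HT. With a −log10 q of at least 5 in both lists, 11 pSHF-restricted and 16 HT-restricted peaks remained within 100 kb (from 36 and 26), the HT share was 76.2%, the difference within 500 kb of *Foxa2* turned to -1, and those at *Foxa1* and *Epcam* to -1 each. Against all peaks of the other list, the same limit left 7 and 10, a pSHF share of 43.8% and -1 at *Foxa1*. At or above the median fold enrichment there were 16 and 11, shares of 76.2% and 68.8%, and -1 at *Epcam*. Counts were 21 and 15 within 50 kb and 101 and 93 within 500 kb of every gene (*Epcam* -2), and 17 in HT where the member was the nearest coding gene. Without peaks near gene ends the shares were 78.9% and 71.9% (*Epcam* -1). Fewer or more peaks enter these counts by construction, and other causes were not tested. Counting every summit line, or taking peaks within 500 bp as shared (chosen after seeing the data), left both counts within 1.5 times their main value and both shares inside their intervals, as did leaving out each gene in turn, with pSHF shares of 54.9% to 64.7% and HT shares of 50% to 57.1%. The median log2 ratio ran from -0.44 to 0.0 over its alternatives. No paired analysis was possible because the files hold 1 list per tissue and no value per replicate, and for the same reason no replicate could be left out. Restricted calls rest on few reads. In pSHF, 15 of 36 (41.7%, beside 34.7% of all restricted peaks) held 10 reads or more, and in HT 13 of 26 (50%, beside 48.4%). The effect of sequencing depth on these calls was not tested.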
